A study of Homo sapiens with 2 samples.

Results

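C/D box snoRNAs are short nucleolar RNAs, and all genes whose GENCODE v29 symbol starts with SNORD were taken as members: 278 of 57894 annotated genes, with 275 distinct symbols. The rule used no measured value. Total RNA was sequenced from HEK293 cells, an established line from human embryonic kidney, to compare parental cells with a LARP7 knockout. There were 2 parental libraries, with no knockout allele named, and 2 libraries of knockout clone 1-11. All knockout libraries came from this 1 clone, so the knockout and anything else that differs in the clone cannot be told apart. The source-name field of the knockout sample reads wildtype and disagrees with its title and genotype field, which were followed here. Whether the 2 libraries of a group are separate cultures is not stated, and a p-value here therefore sets a difference against a library-to-library spread that may be technical. The 4 libraries held 12851942 to 18483220 estimated reads, of which 0.109 to 0.234% lay on C/D snoRNA genes. Parental replicate 2 stood apart, as the shallowest library with the shortest fragments and the largest share of C/D reads. Values without it are therefore given for some of the C/D loci and class sums named below. Other named loci moved too: without it, the log2 fold change (knockout over parental) went from -2.34 to -0.75 for SNORD12C and from -1.61 to -0.23 for SNORD105B.

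As background, a C/D box snoRNA binds fibrillarin, NOP56, NOP58 and SNU13, and a stretch next to its D or D′ box pairs with a target RNA. Fibrillarin then methylates the 2′ oxygen of the target base paired to the fifth snoRNA base upstream of the box. Most of these RNAs guide methylation of ribosomal RNA and are cut from introns of host genes. U3, U8 and U13 act in ribosomal RNA processing or acetylation, and a small group guides methylation of the spliceosomal U6 RNA. LARP7 binds 7SK RNA, and it is also known to bring U6 to its C/D box guides.

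The sequences of 5 U6 guides are shown first because these snoRNAs carry the link to LARP7. Each is the GENCODE v29 transcript on GRCh38, written 5′ to 3′ as DNA. Capitals mark the C box (TGATGA with at most 1 mismatch, in the first 30 bases) and the last CTGA, the letters of the D box.
SNORD7: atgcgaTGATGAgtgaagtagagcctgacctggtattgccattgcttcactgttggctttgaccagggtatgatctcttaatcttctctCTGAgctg
SNORD8: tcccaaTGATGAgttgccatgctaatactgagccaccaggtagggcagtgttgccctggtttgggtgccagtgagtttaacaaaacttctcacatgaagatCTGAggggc
SNORD10: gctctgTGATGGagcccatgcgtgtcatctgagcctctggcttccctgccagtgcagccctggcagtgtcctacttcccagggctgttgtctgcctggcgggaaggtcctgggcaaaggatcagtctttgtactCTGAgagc
SNORD67: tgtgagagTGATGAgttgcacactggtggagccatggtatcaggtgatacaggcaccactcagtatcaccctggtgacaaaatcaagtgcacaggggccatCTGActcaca
SNORD94: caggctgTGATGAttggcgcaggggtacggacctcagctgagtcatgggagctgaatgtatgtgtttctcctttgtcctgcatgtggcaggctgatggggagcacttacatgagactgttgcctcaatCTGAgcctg

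SNORD7 lies at chr17:35573657-35573753 on the plus strand, within LINC02001. SNORD8 lies at chr14:21397292-21397401 on the minus strand within CHD8, which codes for a chromatin remodeller. SNORD10 lies at chr17:7576811-7576952 on the plus strand within EIF4A1, a translation initiation helicase gene. SNORD67 lies at chr11:46762389-46762499 on the minus strand within CKAP5, and SNORD94 at chr2:86135870-86136006 on the plus strand within PTCD3. SNORD8 and SNORD10 also fall inside an exon of 1 host transcript each, so reads of that transcript and of the snoRNA are hard to separate there.

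Both boxes were searched on the snoRNA strand only. Of all 278 loci, 98.2% hold CTGA and 77.3% hold TGATGA without a mismatch, so the 5 guides share these letters with most C/D loci. SNORD10 is the guide among the 5 whose C box has a mismatch. A CTGA can overlap a C box, and a match is a run of letters and not a measured contact.

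Few reads covered the U6 guides, at 43 to 203 reads over the 4 libraries for the 2 that could be tested. SNORD10 had 49.4 and 85.8 estimated reads in the parental pair and 25.7 and 42.6 in the knockout. That is 2.80 and 6.80 CPM (reads scaled to a common library size with TMM factors) against 1.50 and 2.52 CPM. Both knockout libraries lay below both parental libraries, and knockout replicate 2 came close to parental replicate 1. The log2 fold change, knockout over parental, was -1.22 (SE 0.51), with an adjusted p of 0.327 by edgeR's quasi-likelihood test. Without parental replicate 2 it was -0.46.

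SNORD94 had 15 reads in each parental library, and 6 and 7 in the knockout libraries, or 0.851 and 1.19 CPM against 0.349 and 0.413 CPM. The groups did not overlap, and the 2 libraries within a group were close, though closeness at so few reads says little. SNORD94 reached the level of the filter on low counts in 2 parental and 0 knockout libraries. Its lower value therefore comes partly from that selection. Its log2 fold change was -1.39 (SE 0.69, edgeR adjusted p 0.410). Without parental replicate 2, the log2 fold change of SNORD94 was -1.15.

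The other 4 U6 guides were too sparse to test. SNORD9 had 1, 6, 1 and 0 reads in parental replicates 1 and 2 and knockout replicates 1 and 2, and SNORD8 had 2, 3, 1 and 1. SNORD67 had 1 read, in parental replicate 1, and SNORD7 had 2, in parental replicate 2. No direction can be read from these counts, which lie near or under a floor of 3 reads, and intervals or floors from reads cover counting error only. Summed over the 6 guides, reads were 68.4 and 112 in the parental pair and 33.7 and 50.6 in the knockout. SNORD10 alone held 49.4 and 85.8 of these parental reads and 25.7 and 42.6 of the knockout reads, so the sum mostly repeats that locus. The sum was 6.37 ± 3.52 CPM (SD, n = 2) in parental cells and 2.47 ± 0.726 CPM (SD, n = 2) in the knockout, or 38.9% of the parental mean. SNORD10 by itself was at 41.8%. Both knockout sums lay below both parental sums, and parental replicate 2 was 2.28 times replicate 1. The log2 ratio of the sums was -0.65 without parental replicate 2. Reads on U6 genes themselves (1276 annotated RNU6 entries) numbered 63, 95, 107 and 107 in the same order, and their CPM overlapped between the groups.

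Of all 278 C/D loci, 93 had any read and 185 had none. Of those with reads, 55 had fewer than 10 over the 4 libraries together, and 19 had at least 10 reads in every library. After the filter on low counts, 23 loci were tested, and this filter keeps loci that are high in either group. Of these, 4 (SNORD12C, SNORD45C, SNORD70 and SNORD94) reached the filter's level in both parental libraries but not in both knockout libraries, and 0 did the reverse, so the counts and the median below lean towards lower values. The log2 fold change was below 0 for 22 of the 23 and above 0 for 1, SNORD17; among all 18484 genes tested, 49.7% were below 0. The median was -1.29 on the log2 scale for the tested loci and 0.0024 for all genes. Without those 4 loci, 18 of 19 were below 0, with a median of -1.22. None of the 23 passed an adjusted p of 0.05 by edgeR in either direction, where 0.833% of all genes did (0.503% lower, 0.330% higher). At an unadjusted p under 0.05 by edgeR, 14 were lower and 0 higher, where 7.67% of all genes were lower and 6.58% higher. SNORD12C, SNORD45C and SNORD70, of the 4 loci above, are among the 14. DESeq2 called 3 of the 20 loci for which it gave an adjusted p, all lower (SNORD3B-1, SNORD3B-2 and SNORD13). It called 1.81% of all genes lower. SNORD3B-1 and SNORD3B-2 have the same mature sequence, so their calls are not separate. The limma voom fit called 0 of the loci, where 0.812% of all genes were called.

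Both knockout libraries lay below both parental libraries for 15 of the 23 tested loci and above them for 0, and the groups overlapped for 8. Over all genes tested, 22.7% lay below in this way and 23.6% above. The 15 include SNORD12C, SNORD45C, SNORD70 and SNORD94, the 4 that reached the filter's level in both parental but not both knockout libraries. The count of 15 therefore leans towards lower values too. Over the 93 loci with reads, 40 lay below (17.8% of all genes with reads did) and 52 overlapped. The remaining 1, SNORD87, lay above (19.1% of all genes), with 0 parental reads and 0.995 and 2.41 knockout reads. Some of the 40 had parental reads only, such as SNORD35B (1.97 and 5.55 reads) and SNORD99 (1 and 1). They are in the set through the group where they are higher, so the count of 40 also leans towards lower values. These counts rest partly on parental replicate 2. Without it, 24 loci were tested, 20 were below 0, the median was -0.46, and 3 were called lower (SNORD118, SNORD3B-1, SNORD3B-2) and 1 higher (SNORD17), against 4.94% of all genes called lower and 4.33% higher. Without parental replicate 1, 20 of 31 tested loci were called, all lower, against 5.70% of all genes called lower. In bulk RNA, a lower share of cells with a snoRNA and less of it per cell cannot be told apart.

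**Figure D1:**
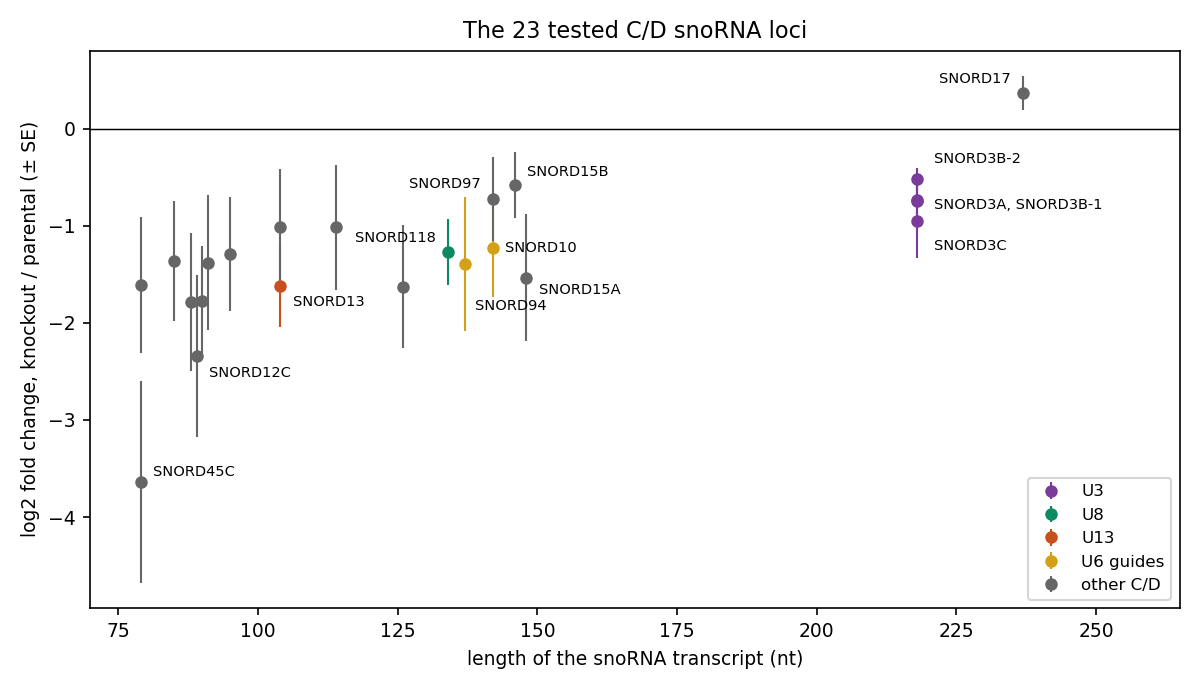
Log2 fold change (knockout over parental, with its SE) of the 23 tested C/D loci against the length of the snoRNA in nucleotides, coloured by class; each point is 1 locus. SNORD17 is the only point above 0, and SNORD45C is the lowest.

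U3, U8 and U13 held most of the C/D reads. U3 (SNORD3 and its copies), needed for the cleavages that release 18S ribosomal RNA, took 87.0% of all C/D reads. Its 11 annotated loci, of which 5 had reads, summed to 25842 and 25716 reads in the parental pair and 15769 and 21416 in the knockout. In CPM this was 1466 and 2038 against 919 and 1265, so both knockout libraries lay below both parental libraries. The means were 1752 ± 405 CPM in parental cells and 1092 ± 245 CPM in the knockout pair (SD, n = 2 each), or 62.3% of parental. Summed before the fit, the U3 loci had a log2 fold change of -0.68 (SE 0.19, edgeR adjusted p 0.155), and the log2 ratio of the CPM sums was -0.43 without parental replicate 2. The 4 tested U3 copies are nearly identical, so the division of reads among them is Salmon's estimate and is uncertain.

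SNORD3B-2 had the smallest adjusted p of any C/D locus. Its level was 439 and 477 CPM in the parental pair and 326 and 314 CPM in the knockout pair, with no overlap and a narrow spread in both groups. Its log2 fold change was -0.52 (SE 0.11, edgeR adjusted p 0.0841). SNORD3B-1, its neighbour on the opposite strand of chromosome 17, had 443 and 408 against 202 and 308 CPM, again without overlap (log2 fold change -0.74, SE 0.18, adjusted p 0.132 by edgeR). Both copies differ from SNORD3A by the same substitution, A78C (SNORD3A's base first, counted from 1 at the 5′ end), and thus cannot be told apart within the mature 218 nt.

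SNORD3A had 563 and 1099 CPM in the parental pair and 373 and 624 CPM in the knockout pair. Its groups overlapped, because knockout replicate 2 exceeded parental replicate 1. The log2 fold change was -0.74 (SE 0.31, edgeR adjusted p 0.333), and -0.18 without parental replicate 2. SNORD3A took 38.4 and 53.9% of the U3 reads in the parental pair and 40.7 and 49.3% in the knockout, so the division among copies differed as much within a group as between groups. SNORD3C, which differs by G108A, had 19.5 and 52.4 against 17.2 and 19.7 CPM, with overlapping groups. Its log2 fold change was -0.95 (SE 0.38, edgeR adjusted p 0.311), and -0.079 without parental replicate 2. SNORD3D, with 3 substitutions (A4G, C53T and A78C), had 9.00, 12.7, 0.291 and 0 reads and was not tested. Entries longer than 300 nt, 4 in all among the U3 genes, held 9.86% of the U3 reads.

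U8 (SNORD118), which acts in the processing of 28S and 5.8S ribosomal RNA, is shown in full because it is the C/D locus that passed the test whichever library was left out. Capitals mark the last CTGA; the locus is chr17:8173454-8173587 on the minus strand.
SNORD118: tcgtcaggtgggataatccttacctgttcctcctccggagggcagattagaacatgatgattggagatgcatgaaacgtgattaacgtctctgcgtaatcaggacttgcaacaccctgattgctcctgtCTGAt

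SNORD118 had 46.8 and 106 CPM in the parental pair and 25.6 and 37.4 CPM in the knockout pair, from 440 to 1336 reads. Both knockout libraries lay below both parental libraries, and parental replicate 2 was 2.26 times replicate 1. The log2 fold change with all libraries was -1.27 (SE 0.34), with an edgeR adjusted p of 0.152. With 1 library left out, the log2 fold change ranged from -1.75 (without parental replicate 1) to -0.57 (without parental replicate 2). Each of those fits also called a larger share of all genes than the fit with all libraries. With 3 libraries, 1 group has a single library, whose spread is assumed to be that of the other. An exon of the gene TMEM107, which codes for a protein of the ciliary transition zone, covers the locus. TMEM107 had 122 and 194 CPM in parental libraries and 77.9 and 103 CPM in the knockout pair, a log2 fold change of -0.80 (SE 0.22, edgeR adjusted p 0.162), so the reads of the 2 genes may be mixed.

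U13 (SNORD13) guides acetylation of 18S ribosomal RNA together with NAT10. It had 7.73 and 20.5 CPM in the parental pair and 4.19 and 4.89 CPM in the knockout pair. Both knockout libraries lay below both parental libraries, which were 2.65-fold apart. Its log2 fold change was -1.62 (SE 0.43, edgeR adjusted p 0.146), and the summed U13 entries were at 32.1% of the parental mean. Without parental replicate 2, the log2 fold change of SNORD13 was -0.76 and the log2 ratio of the U13 sums -0.78.

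SNORD17, a guide of 28S ribosomal RNA methylation and the longest tested locus, was the exception in direction. Its sequence, at chr20:17962710-17962946 on the minus strand within SNX5, is shown for that reason, with the C box and the last CTGA in capitals.
SNORD17: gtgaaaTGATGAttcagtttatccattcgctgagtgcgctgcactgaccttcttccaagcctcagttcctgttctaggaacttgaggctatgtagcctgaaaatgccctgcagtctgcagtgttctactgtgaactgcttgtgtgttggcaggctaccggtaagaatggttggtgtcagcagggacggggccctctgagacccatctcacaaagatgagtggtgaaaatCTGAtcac

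SNORD17 had 67.2 and 84.7 CPM in the parental pair and 83.6 and 112 CPM in the knockout pair, from 1069 to 1897 reads. The groups overlapped slightly, since knockout replicate 1 lay just under parental replicate 2. The log2 fold change was 0.37 (SE 0.18, edgeR adjusted p 0.394) and ranged from 0.14 to 0.56 with 1 library left out. It passed the test in 1 of those fits, without parental replicate 2, at 0.54 (SE 0.13, edgeR adjusted p 0.00268). The other 132 loci outside the named classes and the imprinted clusters, SNORD17 left out, summed to 83.9 CPM in parental cells and 38.3 CPM in the knockout pair. That is 45.6% of parental, but the parental libraries were at 44.8 and 123 CPM, and against replicate 1 alone the knockout libraries were at 0.728 and 0.981 times. SNORD17 was left out of this sum after its direction was seen. With SNORD17 included the groups overlapped, at 160 ± 67.7 and 136 ± 28.1 CPM (SD, n = 2 each).

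**Figure D2:**
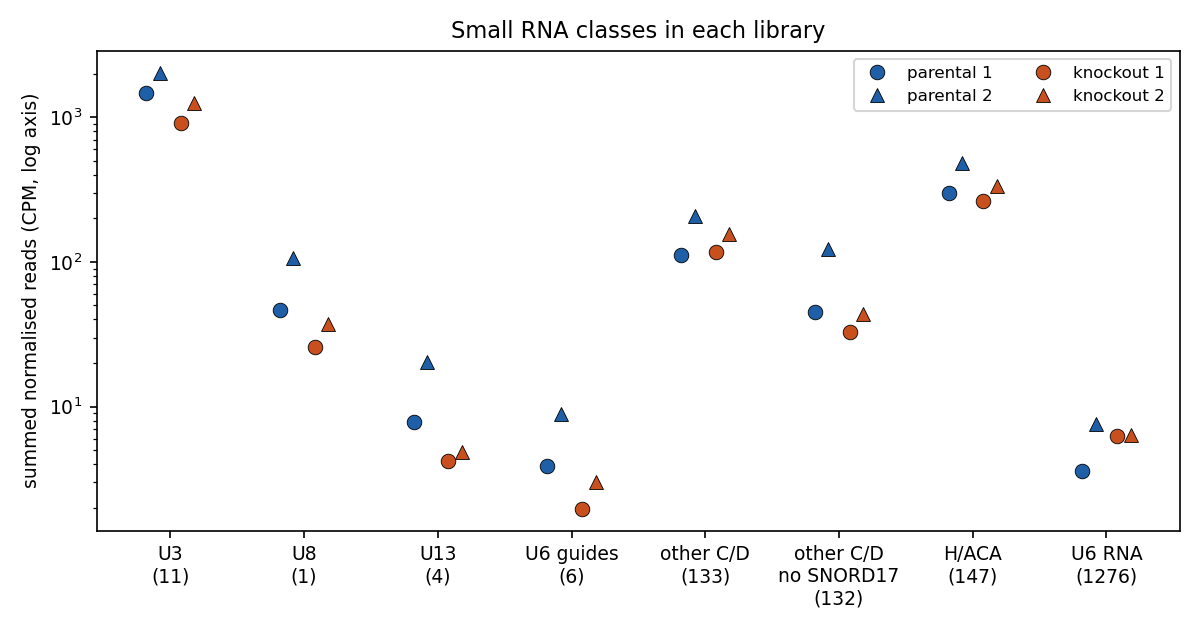
Summed CPM (log axis) of each class in the 2 parental (blue) and 2 knockout (orange) libraries; circles are replicate 1, triangles replicate 2, and the number of annotated genes stands under each class. U3, U8, U13 and the U6 guides lie lower in both knockout libraries, and the other C/D loci overlap between groups unless SNORD17 is left out.

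Among the other guides of ribosomal RNA methylation, SNORD15B, within RPS3, was the most abundant per length after SNORD17. It had 19.2 and 42.2 CPM in parental cells and 16.8 and 24.2 CPM in the knockout pair, with overlapping groups. The log2 fold change was -0.58 (SE 0.34, edgeR adjusted p 0.495), and it changed sign, to 0.091, without parental replicate 2. SNORD12B, within ZFAS1, had 1.30 and 6.50 against 1.22 and 1.71 CPM, so parental replicate 2 alone stood high. Its log2 fold change of -1.38 (SE 0.69, edgeR adjusted p 0.418) became 0.17 without that library.

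SNORD91B, within TSR1, had the same shape, with 2.38 and 9.27 against 2.04 and 2.66 CPM (log2 fold change -1.29, SE 0.59, edgeR adjusted p 0.368). Without parental replicate 2, its log2 fold change was -0.024. SNORD33, a guide of 18S ribosomal RNA methylation that exons of 2 RPL13A transcripts cover, had 1.51 and 5.58 against 1.42 and 1.27 CPM. Its groups did not overlap, but the knockout values were close to parental replicate 1 (log2 fold change -1.36, SE 0.62, edgeR adjusted p 0.365), and without parental replicate 2 the value was -0.19. SNORD45C, covered by an exon of 1 RABGGTB transcript and named after its values were seen, had the lowest log2 fold change of the tested loci, -3.64 (SE 1.04, edgeR adjusted p 0.171). It rested on 16.7 and 18.4 parental reads and 0.438 and 2.63 knockout reads, and it passed the filter through the parental libraries, so its rank comes partly from that selection.

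Compared per length, as the mean CPM of the 4 libraries per kilobase of snoRNA, the order was led by SNORD3A at 3050, SNORD3B-2 at 1784 and SNORD3B-1 at 1561. SNORD3B-1 lay just above SNORD3B-2 in parental replicate 1. SNORD118 and SNORD17 followed, in an order that differed between the groups: SNORD118 was at 569 CPM per kilobase in parental cells and 235 in the knockout pair, and SNORD17 at 320 and 413. SNORD118 was the higher in both parental libraries and SNORD17 in both knockout libraries. Over the 4 libraries, SNORD15B stood at 175, SNORD3C at 125 and SNORD13 at 89.6 CPM per kilobase. Of the U6 guides, SNORD10 had a mean of 33.8 CPM per kilobase in parental cells, under SNORD12 at 36.2 and SNORD105B at 38.3. In the knockout pair its mean was 14.1, above both (10.5 and 12.3). The order against SNORD105B did not hold in single libraries. SNORD10 was above it in parental replicate 1 (19.7 against 14.4) and below it in knockout replicate 1 (10.5 against 11.1). Against SNORD12, SNORD10 was close in both of these libraries (19.7 against 20.7, and 10.5 against 9.96). SNORD94 stood at 7.44 and 2.78 CPM per kilobase.

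The difference between groups varied with snoRNA length. Loci under 80 nt summed to 26.9% of the parental mean in the knockout, those of 80 to under 100 nt to 30.1%, and those of 100 to under 130 nt to 35.1%. The share was 48.1% for 130 to under 200 nt and 65.1% for 200 nt and longer. In each of these 5 bins both knockout libraries lay below both parental libraries. The 2 parental libraries differed from each other along the same axis: replicate 2 over replicate 1 was 3.08, 3.57, 2.87, 2.22 and 1.39 in the same order of bins. Against parental replicate 1 alone, knockout replicate 1 was at 0.477, 0.636, 0.613, 0.631 and 0.654 times its level in the same order of bins. Knockout replicate 2 was at 0.621, 0.738, 0.744, 0.918 and 0.898 times. From 80 nt up, knockout replicate 1 was thus nearly level. U3 held 25842 of the 27027 reads of the longest bin in parental replicate 1, so length and snoRNA family cannot be told apart there.

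Several measures of the libraries moved with these levels. Mitochondrial transfer RNAs, which are also short, were at 22.6% of the parental mean in the knockout and 3.86 times as high in parental replicate 2 as in replicate 1. Mean fragment length, read as length minus effective length, was 217 and 207 bases in the parental pair and 233 and 226 bases in the knockout. H/ACA snoRNAs, the longer pseudouridylation guides (147 genes), had 393 ± 132 CPM in parental cells and 301 ± 51.9 CPM in the knockout pair (SD, n = 2 each), with overlapping groups. With an offset for the effective lengths in each library, 22 of the 23 tested loci were below 0, 0 were called by edgeR, and the median log2 fold change was -1.23. The part of short-RNA recovery in the C/D values was not tested. 7SK, the small RNA that LARP7 is known to stabilise, was close in the 2 parental libraries (ratio 0.984) and 29.6-fold lower in the knockout (log2 fold change -4.89, SE 0.12, edgeR adjusted p 1.13e-06).

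**Figure D3:**
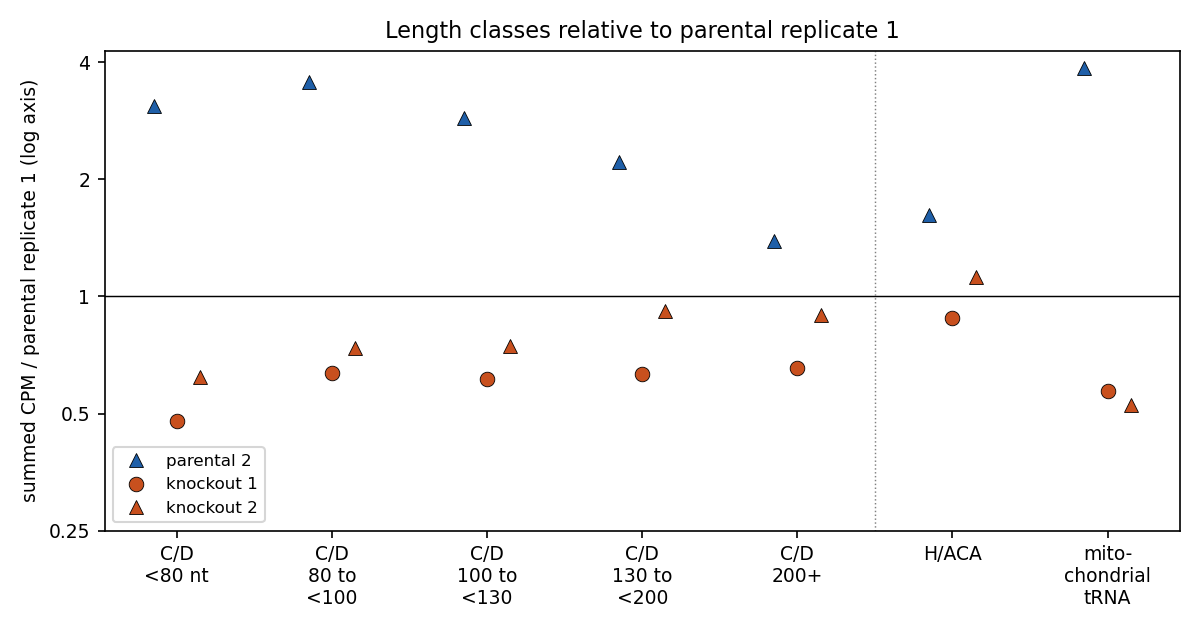
Summed CPM of C/D loci in 5 length bins, and of H/ACA snoRNAs and mitochondrial transfer RNAs, in parental replicate 2 (blue) and both knockout libraries (orange), divided by parental replicate 1 (log axis; the line marks 1). Parental replicate 2 lies at 3.57 times in the bin of 80 to under 100 nt and 1.39 times at 200 nt and longer, while all knockout points of the C/D bins lie under 1.

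The large imprinted clusters gave no reads. The 83 loci of the 15q11-q13 cluster, in SNHG14, and the 40 of the 14q32 cluster, in MEG8, were at 0 reads in every library. This allows up to 3 reads per library, or 0.170 to 0.238 CPM. These clusters make up 123 of the 185 loci with no read. Sequence identity also limits what single loci can show, since 21 of the 278 loci have an identical copy elsewhere.

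Most C/D snoRNAs come from introns, so each locus was set beside its host gene. A host was found for 263 loci, and 81 loci lie within an exon of another annotated transcript. Of 18 tested loci with a tested host, 17 had a lower log2 fold change than the host, and SNORD17 was the exception. The 18 include SNORD12C, SNORD45C, SNORD70 and SNORD94, which reached the filter's level in both parental but not both knockout libraries. The count of 17 therefore leans towards lower values. Some of the 18 share a host, as do the 3 loci in ZFAS1. Without parental replicate 2, SNORD12B, SNORD15B and SNORD89 were above 0, at 0.17, 0.091 and 0.18. The host genes of the 18 loci ranged from -0.80 (TMEM107) to 0.52 (PPAN) on the log2 scale. EIF4A1, the host of SNORD10, was at 0.04, PTCD3, the host of SNORD94, at -0.03, and SNX5, the host of SNORD17, at -0.07. Over all loci there were 79 host genes, of which 75 were tested. Of these 38 were above 0 and 37 below, and 0 passed the test by edgeR or limma voom, with 5 at an unadjusted p under 0.05 (14.3% of all genes). Over all genes, edgeR called 0.833% and limma voom 0.812%. DESeq2 called 1 host gene, TMEM107, as lower, where it called 1.81% of all genes lower.

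**Figure D4:**
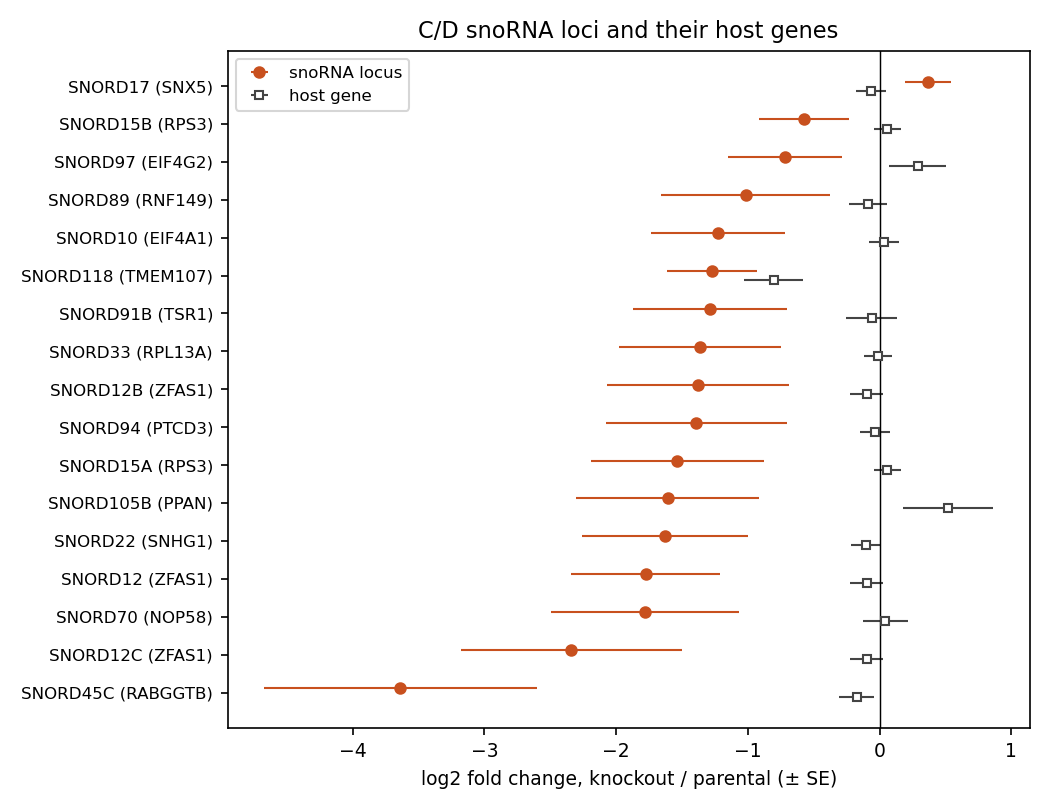
Log2 fold change with SE of 17 of the 18 tested C/D loci that have a tested host gene (filled circles) and of the host (open squares), ordered by the snoRNA. Host genes lie between -0.80 and 0.52, and the snoRNA lies left of its host in 16 of the 17 pairs shown. SNORD12C, SNORD45C, SNORD70 and SNORD94 passed the filter on low counts through the parental libraries.

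Arrays of snoRNAs within 1 host were summed where the host holds at least 3. In ZFAS1, a small nucleolar host transcript with SNORD12, SNORD12B and SNORD12C, the 3 snoRNAs had 69.8 and 193 reads in the parental pair and 42.4 and 55.7 in the knockout. ZFAS1 itself was at a log2 fold change of -0.10. The 4 snoRNAs of RPL13A had 33.2 and 96.1 against 31.3 and 30.7 reads, so parental replicate 2 alone stood high. In RABGGTB the 3 snoRNAs had 20.3 and 33.1 parental reads and 0.438 and 3.59 knockout reads, and RABGGTB was at a log2 fold change of -0.17. This array was not the next in depth, with 57.4 reads in all against 135 for that of SNHG1. It includes SNORD45C, which passed the filter through the parental libraries, and exons of RABGGTB cover SNORD45C and SNORD45A.

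The proteins that build, trim or bind C/D snoRNAs were measured in 41 genes, all tested. None passed the test by edgeR or limma voom, 20 were above 0 and 21 below, and 4 had an unadjusted p under 0.05, where 14.3% of all genes did. Over all genes, 0.833% passed by edgeR and 0.812% by limma voom. DESeq2 called 1 of the 41, LARP7, as lower, against 1.81% of all genes. Among the 4 core proteins, fibrillarin (FBL), the methyltransferase, was at 115 ± 2.76 CPM in parental cells and 113 ± 4.11 CPM in the knockout pair (SD, n = 2 each). NOP56, NOP58 and SNU13 had log2 fold changes of -0.02, 0.04 and -0.23. Of 12 assembly factors, 6 were above 0 and 6 below, from PIH1D1 at -0.39 to PHAX at 0.30, and 6 proteins of the U3 particle ranged from -0.32 to 0.25.

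Among 6 genes that act in trimming, DIS3, the exosome nuclease, had the lowest log2 fold change, -0.47 (SE 0.14, edgeR adjusted p 0.173). Its level was 365 and 292 CPM in parental libraries and 241 and 233 CPM in the knockout pair, without overlap. DBR1, the debranching enzyme that opens intron lariats, was highest at 0.37 (SE 0.15, edgeR adjusted p 0.327). LARP7 itself had 59.7 and 46.4 CPM in the parental pair and 36.0 and 31.8 CPM in the knockout pair, again without overlap. Its log2 fold change was -0.65 (SE 0.16, edgeR adjusted p 0.135); the position of the edit is not given in the labels, so the count over the whole gene does not check it. SSB, the La protein, was at 0.16, and LSM2 to LSM8, the ring that binds the U6 tail, ranged from LSM4 at -0.29 to LSM5 at 0.16.

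The identity of the cells was checked on a short list of markers. All 6 HEK293 markers were tested, with means from PAX2 at 4.37 CPM (parental) and 4.99 CPM (knockout) to VIM at 420 and 513 CPM. Of these, 4 had a log2 fold change above 0 and 2 below, and 3 had an unadjusted p under 0.05 by edgeR (14.3% of all genes). The 1 that passed the test was NEFM (log2 fold change -2.91, edgeR adjusted p 0.00164). Of 6 markers of other cell types, HBB, CDH5 and MYH7 were at 0 in every library, and PTPRC, ALB and SFTPC were at most 0.466 CPM.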

How the data were processed

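The C/D loci, gene lists and tests were chosen with earlier results of these data known. Per the labels, the RNA was a TRIzol extract and the Ovation SoLo kit was used to prepare it for sequencing. Each deposited table lists transcripts with the estimated counts and TPM that Salmon gave, and with length and effective length, per the file headers. TPM was used only to weight effective lengths for the length offset. Salmon 1.6, STAR 2.5.3a, cutadapt 1.6 and build hg38 are among the names listed, per the submitters' processing notes. Which annotation release and strand setting were used is not given in the sources used here. Without a known strand setting, reads of a snoRNA and of a gene on the other strand cannot be told apart, and reads of a host transcript over a locus may be counted for it.

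Transcripts were joined to GENCODE v29, and 197318 of 198002 matched. Gene totals of the estimated counts were rounded to integers. The libraries held 18483220 and 12851942 (parental) and 16838501 and 16218587 (knockout) estimated reads. The 2 libraries of a group differed beyond sampling noise (chi-square per degree of freedom 30.7 for parental, 8.74 for knockout), so no pair was merged as copies of 1 library; this does not show that they are separate cultures. The 7SK entry that holds the reads was chosen after its values were seen.

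All 18484 genes that passed filterByExpr were fitted with edgeR 4.0.16 (TMM factors, quasi-likelihood F test, Benjamini-Hochberg over all genes, threshold 0.05) in R 4.3.3. The SE was taken as the log2 fold change over the square root of F. CPM are counts scaled with the TMM factors; class sums of CPM are described without a test, since 2 against 2 libraries cannot reach the threshold in an exact permutation test; counts summed per family were tested with edgeR as an alternative. The host is the same-strand protein-coding or lncRNA gene that spans the locus, the most abundant where several do. Named by rule were the 6 U6 guides, SNORD3A to SNORD3D, SNORD118, SNORD13, LARP7 and 7SK. The 12 C/D loci with the highest mean CPM were also named by rule, as were their hosts. From each factor list the rule took up to 4 members with the smallest p, but not all of these are named. Other genes were named after their values were seen, among them factor genes at the end of a range, such as PHAX. The steps were tested on simulated data. Alternatives were DESeq2 1.42.0, limma 3.58.1 voom, other scaling factors (RLE, upper-quartile, library size alone, H/ACA reads), no filter, a filter of 20 reads in 2 libraries, a length offset, summed families, a replicate block, and fits without 1 library. Some sequences, the pairing of guides with their target and 1 host gene pair are not reported here.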

Additional observations from a re-analysis of the deposited data

How the results depend on the processing

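The number of C/D loci past the threshold was 0 with all 4 libraries under edgeR, and stayed 0 with RLE, upper-quartile, library-size and H/ACA scaling, limma voom, the stricter filter, the length offset and summed families. It was 3 with DESeq2, 10 with no filter (of 93 loci), 10 with a replicate block and 2 to 20 with 1 library left out (20 without parental replicate 1, 4 without parental replicate 2, 2 without knockout replicate 1, 4 without knockout replicate 2). The factor lists went from 0 to 1 with DESeq2, 2 with no filter, 2 with the block and 0 to 8 with a library left out. The host genes went from 0 to 1 with DESeq2, 3 with no filter, 6 with the block and 0 to 14 with a library left out. Calls over all genes moved too, from 0.833% to 3.03% with DESeq2, 2.64% with no filter, 8.96% with the block, and 11.4, 9.27, 1.05 and 1.01% without parental replicate 1, parental replicate 2, knockout replicate 1 and knockout replicate 2. The cause of these moves was not tested. The fits without 1 library also tested 24 to 33 C/D loci, not 23, since a locus can pass the filter there through a single library.

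The replicate numbers are not known to pair the libraries. Over 18484 genes the deviations of the replicate-1 libraries from their group means correlated at 0.133, with 2 pairs only, and the block raised the calls over all genes from 154 to 1656.

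Summed log2 changes kept their sign under every scaling and with any library left out for all C/D loci (-0.91 to -0.30), the U6 guides (-1.84 to -0.65), U3 (-0.93 to -0.33), U8 (-1.75 to -0.57) and U13 (-2.17 to -0.78). The other C/D loci, at -0.23, reversed to 0.17 when scaled to H/ACA reads and ranged from -0.61 to 0.28 with a library left out, above 0 without parental replicate 2. Of the single loci named by rule, SNORD15B (-1.05 to 0.091 with a library left out) and SNORD12B (-2.14 to 0.17) reversed without parental replicate 2. Scaling to H/ACA reads moved the median of all genes by 0.33 (log2) and split the calls over all genes into 152 higher and 55 lower, library size alone into 106 and 82, against 61 and 93. Few or no reads bear on the rest: 185 loci had no read and 55 had under 10 in total.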

Other observations

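SnoRNA arrays in host genes other than those summed above were covered by few reads. Some of their loci, such as SNORD22 and SNORD70, are among the tested loci set beside their hosts above. The 6 loci of SNHG1, whose array includes SNORD22, had 29.6 and 68.9 reads in the parental pair and 15.6 and 20.7 in the knockout pair. In RPL3 the 3 loci had 12 and 43 parental reads and 7.5 and 5.0 knockout reads, and in GNL3, a nucleolar GTPase gene, the 3 loci had 13 and 28 against 7 and 4. The 3 loci of NOP58, which codes for a core protein of the C/D particle, had 17 and 34 against 9 and 10 reads. NOP58 itself was at a log2 fold change of 0.04. SNORD70, which passed the filter through the parental libraries, held 66 of the 70 reads of this array. In each of these 4 arrays parental replicate 2 had the most reads, although it was the shallowest library.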
